A study of Mus musculus with 9 samples.

Results

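The genes described here build and shed the cornified envelope of stratified squamous epithelium. They are 46 genes chosen by name, among 52248 named entries measured by RNA sequencing in mouse prostate organoids, and 43 of them reached a mean of at least 0.5 CPM (reads of a gene scaled to a library total of 1000000 reads) in at least 1 group and were tested. The choice was made with earlier results of these data known. The cornified envelope is a shell of cross-linked protein that replaces the plasma membrane of a dying keratinocyte. Scaffold proteins and small proline-rich (Sprr) proteins are joined to each other by transglutaminases, lipids are attached to the outer face, and proteases later cut the junctions so that the dead cells are shed. The programme belongs to skin, mouth, oesophagus and forestomach. Prostate epithelium is glandular, with basal cells beneath a luminal layer, and does not normally cornify.

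All 9 libraries came from organoids grown from basal cells of male mice with floxed Mpc1 alleles (Mpc1 fl/fl), on a mixed C57BL/6N and C57BL/6J background. Mpc1 and Mpc2 form the carrier that brings pyruvate into mitochondria. The 3 vehicle libraries (labelled Mpc1 floxed, vehicle) came from cells infected with a lentivirus coding for red fluorescent protein (RFP). The 3 UK5099 libraries carried that same control virus and were given UK5099, a small-molecule inhibitor of the carrier, at 10 µM for 1 week. The 3 Mpc1-KO libraries came from cells infected with a virus coding for Cre recombinase and RFP, and received vehicle. Infected cells were grown as organoids in Matrigel and dissociated, and RFP-positive cells were sorted by flow cytometry for further organoid culture. No library has Cre with intact Mpc1, so deletion and Cre expression cannot be told apart. Neither the age of the mice nor whether replicates were separate cultures or animals is stated, so p-values measure the spread between these libraries, which may be technical.

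Depth, read from the CPM worth of 1 read, ran from 16490837 to 28725524 reads per library, with a median of 23913618, and 3 reads were worth 0.104 to 0.182 CPM. Mpc1, the deleted gene, was at 2.36, 2.41 and 2.38 CPM in vehicle libraries 1 to 3, 2.04, 2.47 and 2.3 CPM with UK5099 and 0.522, 0.533 and 0.598 CPM in Mpc1-KO. The knockout libraries thus kept some reads counted as Mpc1, and which exons they covered was not analysed here. On the second principal component, with 17.3% of the variance, UK5099 library 1 (27.2) stood apart from UK5099 libraries 2 and 3 (-9.1 and -15.0). Results that rest on it are given with and without it. All 5 basal markers (Krt5, Krt14, Trp63, Krt15 and Itga6) and all 5 luminal markers (Krt8, Krt18, Krt19, Cd24a and Epcam) were above 0.5 CPM in at least 1 group mean. The pan-leukocyte gene Ptprc reached at most 0.19 CPM in any library, the endothelial gene Cdh5 and the collagen gene Col1a2 were at 0 in all 9, and Krt31, a hair keratin, reached at most 0.571 CPM. Some other markers of these cell types were higher. Among immune markers, Cd14 reached 64.4 CPM and Cd68 52.3 CPM. Among mesenchymal markers, Vim reached 188 CPM and Dcn 14.3 CPM, and the endothelial gene Pecam1 reached 1.00 CPM.

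Nearly the whole set was higher with UK5099. Of the 43 genes tested, 41 were higher with UK5099 than with vehicle and none was lower (limma on log2(CPM + 0.5), Benjamini-Hochberg adjusted p below 0.05 over 14049 genes, two-sided). By the same test 19.0% of all genes tested were higher and 17.1% were lower. At an unadjusted p below 0.05 the counts were 42 higher and 0 lower. In 41 genes, all but Klk8 and Sprr2e, every UK5099 library lay above every vehicle library, which held for 23.8% of all genes tested. The median log2 fold change was 2.22, against 0.04 over all genes tested. Log2 fold changes are on the scale of CPM plus 0.5, which understates the change of low genes. With the 3 genes that had no vehicle read at their bound, the median was 2.40. The summed level of the 46 genes was 1451, 1390.3 and 1524 CPM in vehicle libraries 1 to 3, 3306, 6777 and 6387 CPM with UK5099 and 2000.2, 1755 and 2014 CPM in Mpc1-KO, so that the groups did not overlap. A few abundant genes weigh most in these sums. Sprr1a, the largest part, had means of 566 CPM in vehicle, 1660 CPM with UK5099 and 828 CPM in Mpc1-KO. It did not pass with deletion (adjusted p = 0.30, limma). In bulk RNA, more cells of a type and more transcript per cell cannot be told apart.

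The members were chosen with earlier results of these data known, so their counts beside all genes describe the set and do not test it. How the genes entered the test also favoured a share of these calls. There were 23 genes at 0.5 CPM or more in the vehicle mean, and 20 reached that level only in another group, so that these had to differ. Here and below, this refers to the group means only. A gene that entered in this way need not pass, and Klk14, 1 of the 20, did not. The 20 were Flg, Flg2, Hrnr, Rptn, Crct1, Cnfn, Sprr2a1, Sprr2a2, Sprr3, Tgm3, Casp14, Klk6, Klk7, Klk10, Klk11, Klk13, Klk14, Calml3, Abca12 and Alox12b. Counts by role below stand beside the 19.0% of all genes tested that were higher. Of the 23, 22 were higher with UK5099 and none was lower (0 also at an unadjusted p below 0.05), against 17.9% of the 13402 genes at that level in vehicle, and their median log2 fold change was 2.81, against 0.02. Just inside the limit were Klk6, Klk14 and Sprr2a2, with highest group means of 0.600, 0.682 and 0.765 CPM. Just outside it were Aloxe3, Sprr4 and Klk5, at 0.421, 0.275 and 0.0127 CPM, and these 3 were not tested.

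**Figure D1:**
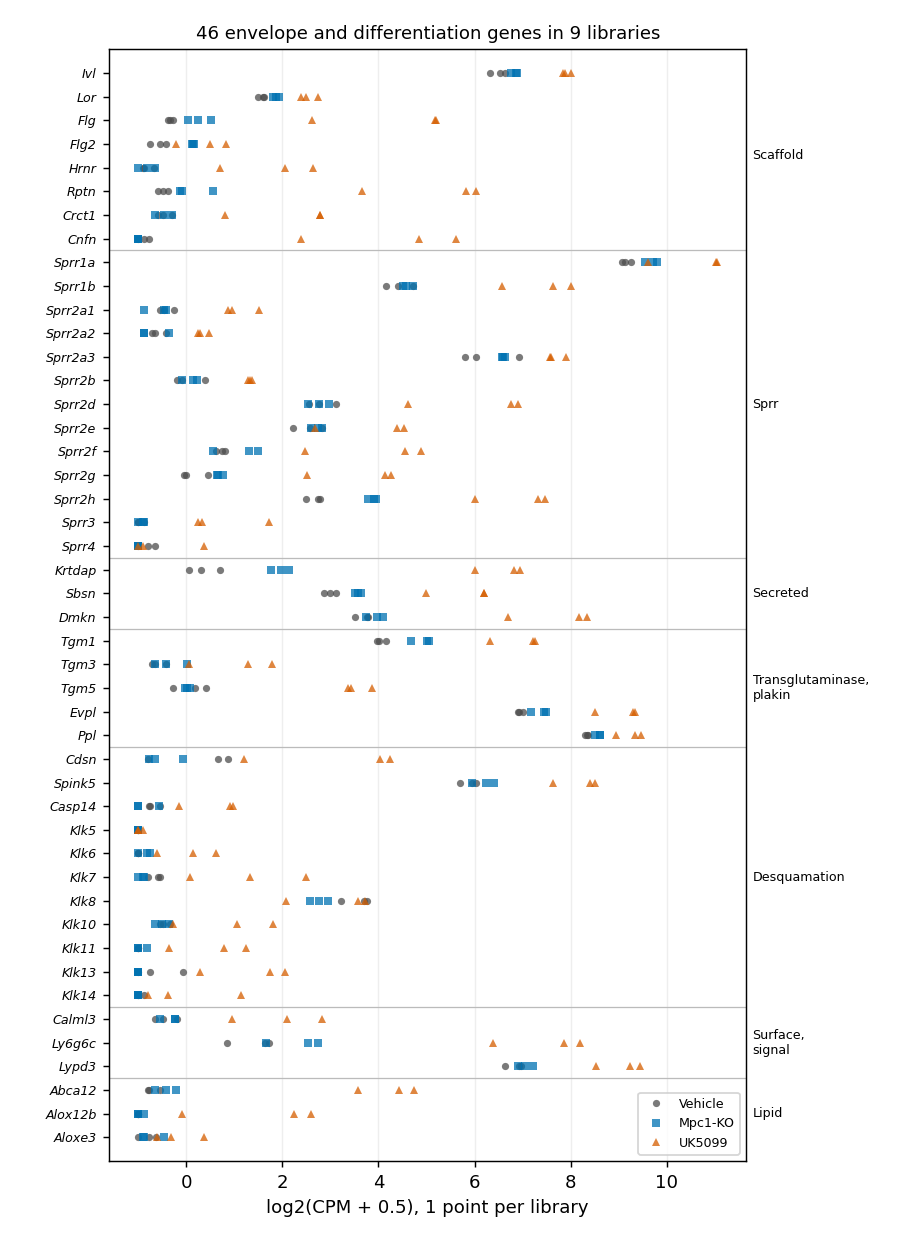
Level of each of the 46 genes in each of the 9 libraries, as log2(CPM + 0.5), 1 point per library, ordered by role. Orange triangles (UK5099) lie to the right of grey circles (vehicle) in most rows, with 1 of the 3 triangles often well to the left of the other 2, while blue squares (Mpc1-KO) lie close to the circles.

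Genes of the scaffold proteins of the envelope were all higher with UK5099, 8 of 8 tested. Of the 8, only Ivl and Lor were at 0.5 CPM or more in the vehicle mean, and the others had to differ. Involucrin (Ivl), a glutamine-rich precursor laid down early under the membrane, was at 98.5, 79.4 and 92.2 CPM in vehicle libraries 1 to 3, 234, 229 and 255 CPM with UK5099 and 118, 108 and 116 CPM in Mpc1-KO. The 3 UK5099 libraries lay close together and above all vehicle libraries, 2.66-fold by the means (90.03 ± 9.72 and 239.5 ± 13.9 CPM, mean ± SD, n = 3 for each group), or 1.41 ± 0.08 on the log2 scale (SE, adjusted p = 1.53e-06, limma). Repetin (Rptn), filaggrin (Flg) and cornifelin (Cnfn) were near the detection limit without the drug. Repetin, a fused S100-type envelope protein, was at 0.272, 0.219 and 0.167 CPM in vehicle, 12.2, 64.8 and 56 CPM with UK5099 and 0.975, 0.444 and 0.414 CPM in Mpc1-KO. Filaggrin, which bundles keratin filaments and is later broken down to the moisturizing amino acids of skin, was at 0.272, 0.328 and 0.293 CPM in vehicle, 5.61, 36.4 and 35.8 CPM with UK5099 and 0.94, 0.533 and 0.689 CPM in Mpc1-KO. In both genes UK5099 library 1 was by far the lowest of the 3 treated libraries, yet it lay above every vehicle and Mpc1-KO library. Their log2 fold changes were 5.65 ± 0.51 for Rptn (adjusted p = 2.43e-05) and 4.66 ± 0.56 for Flg (adjusted p = 1.47e-04). Cornifelin, a small cysteine-rich envelope protein, had 3 reads over the 3 vehicle libraries, none over the 3 Mpc1-KO libraries, and 4.77, 48.2 and 28.1 CPM with UK5099 (log2 fold change 5.17 ± 0.62, adjusted p = 1.48e-04). The other 4 scaffold genes were loricrin (Lor), the glycine-rich bulk protein of the epidermal envelope, hornerin (Hrnr) and filaggrin 2 (Flg2), which are relatives of filaggrin, and Crct1. Their log2 fold changes ran from 0.94 (Flg2) and 0.97 (Lor) to 2.58 (Crct1) and 2.61 (Hrnr). Loricrin moved only from 2.46 ± 0.147 to 5.34 ± 0.756 CPM.

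To show how the promoters of a gene that held steady between treated libraries and of a gene that did not are built, the 250 bases before the start site of Ivl (chr3:92573736-92573985, minus strand) and of Rptn (chr3:93393449-93393698, plus strand) are given 5′ to 3′ from RefSeq on GRCm38.p6, an earlier build than the GRCm39 used for the counts. Both were chosen after their values were seen. Capitals mark the AP-1 letters TGANTCA and the TATA box letters TATAAA.
Ivl: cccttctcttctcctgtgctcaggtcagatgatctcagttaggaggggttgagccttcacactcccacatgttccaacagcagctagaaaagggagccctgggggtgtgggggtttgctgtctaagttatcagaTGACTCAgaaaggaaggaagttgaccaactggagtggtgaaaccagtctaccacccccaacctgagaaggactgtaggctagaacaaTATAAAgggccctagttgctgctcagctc
Rptn: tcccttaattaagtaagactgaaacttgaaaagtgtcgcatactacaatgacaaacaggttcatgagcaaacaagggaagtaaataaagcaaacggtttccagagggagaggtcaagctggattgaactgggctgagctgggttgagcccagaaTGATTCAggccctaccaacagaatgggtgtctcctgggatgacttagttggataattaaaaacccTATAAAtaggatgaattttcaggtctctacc
The AP-1 letters began 116 bases before the start in Ivl and 96 bases before it in Rptn, and the TATA letters 29 and 31 bases before it.

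Genes of the Sprr proteins, short proline-rich bridges between scaffold proteins, were higher with UK5099 in 12 of the 12 tested. Of these, Sprr2a1, Sprr2a2 and Sprr3 were under 0.5 CPM in the vehicle mean and had to differ. Sprr1a was at 558, 533 and 607 CPM in vehicle libraries 1 to 3, 782, 2121 and 2078 CPM with UK5099 and 842, 747 and 895 CPM in Mpc1-KO. Here UK5099 library 1 lay within the range of the Mpc1-KO libraries, and the other 2 treated libraries lay far above them. It rose by 1.42 ± 0.31 on the log2 scale (adjusted p = 0.0052). Sprr1b, its close relative, was at 17.4, 20.8 and 25.9 CPM in vehicle, 94.9, 256 and 198 CPM with UK5099 and 26.0, 22.3 and 23.2 CPM in Mpc1-KO, a rise of 2.97 ± 0.30 on the log2 scale (adjusted p = 4.34e-05). Sprr2h was at 6.21, 5.15 and 6.36 CPM in vehicle, 63.5, 177 and 159 CPM with UK5099 and 14.9, 13.2 and 14.5 CPM in Mpc1-KO. All 9 libraries of Sprr2h fell into 3 separate bands in that order of vehicle, Mpc1-KO and UK5099, and its log2 fold change with the drug was 4.26 ± 0.31 (adjusted p = 5.73e-06).

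Members of the Sprr2 subfamily, which lie side by side, rose by very different amounts. Log2 fold changes with UK5099 were 4.26 for Sprr2h, 3.49 for Sprr2g, 3.28 for Sprr2d and 3.24 for Sprr2f, but 1.33 for Sprr2e, 1.29 for Sprr2b and 0.93 to 1.54 for the 3 Sprr2a genes. The added 0.5 CPM lowers the values of the low genes and so shapes their order. By the ratio of means, Sprr2h, Sprr2g, Sprr2d and Sprr2f rose 22.6, 22.0, 12.7 and 16.4-fold. Sprr2a1, Sprr2a2, Sprr2b, Sprr2e and Sprr2a3 rose 6.92, 4.62, 3.71, 3.03 and 2.59-fold. Sprr2d and Sprr2e, neighbours chosen after their values were seen, had like levels in vehicle, 6.3, 5.37 and 8.2 CPM for Sprr2d and 5.44, 4.16 and 6.61 CPM for Sprr2e. With UK5099 they were at 24.0, 119 and 108 CPM and 5.89, 22.8 and 20.4 CPM. Sprr2e in UK5099 library 1 was thus inside the vehicle range, and its call (adjusted p = 0.028) was lost when any of vehicle libraries 1 and 2 or UK5099 libraries 2 and 3 was left out. Sprr3, typical of oesophagus, went from 1 read in vehicle to between 0.685 and 2.79 CPM with UK5099. Sprr4 was not tested.

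The 3 Sprr2a genes need care, since they are near copies. Of all 50-base words in their annotated transcripts, the length of these reads, 96.3% (Sprr2a1), 96.5% (Sprr2a2) and 61.1% (Sprr2a3) also occur in another gene, mostly in each other, against 14.1% for Sprr2b, 10.2% for Sprr2e, 4.27% for Sprr2d and 0 for Sprr2h. How shared reads were assigned is not stated. Sprr2a3 was at 120.4, 55.3 and 64.9 CPM in vehicle, 239.7, 193 and 190.3 CPM with UK5099 and 99.4, 94.0 and 95.6 CPM in Mpc1-KO, and the sum of the 3 genes was 121, 55.6 and 65.5 CPM, 243, 195 and 192 CPM and 99.9, 94.2 and 95.7 CPM in the same order. Summed, the UK5099 libraries stayed above the other 6, and vehicle library 1 was the highest of the untreated ones. Sprr2g also needs care, being annotated as a transcribed pseudogene in RefSeq.

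The promoters of 5 Sprr2 genes are shown because the genes differ in response while the sequences share 1 layout. They are the 250 bases before the start site on the plus strand of chromosome 3, GRCm38.p6, for Sprr2b (chr3:92316455-92316704), Sprr2d (chr3:92338890-92339139), Sprr2e (chr3:92351893-92352142), Sprr2f (chr3:92364937-92365186) and Sprr2h (chr3:92385435-92385684), with the AP-1 and TATA letters in capitals.
Sprr2b: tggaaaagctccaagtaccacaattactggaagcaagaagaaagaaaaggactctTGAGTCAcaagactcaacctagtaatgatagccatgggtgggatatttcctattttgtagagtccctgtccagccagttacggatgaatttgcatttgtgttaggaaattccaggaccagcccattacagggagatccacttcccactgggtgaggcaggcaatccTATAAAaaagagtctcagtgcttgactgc
Sprr2d: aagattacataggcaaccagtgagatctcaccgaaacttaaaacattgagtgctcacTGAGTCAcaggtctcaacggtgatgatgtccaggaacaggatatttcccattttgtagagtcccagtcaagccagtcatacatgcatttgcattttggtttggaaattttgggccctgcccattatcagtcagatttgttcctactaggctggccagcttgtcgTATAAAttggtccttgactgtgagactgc
Sprr2e: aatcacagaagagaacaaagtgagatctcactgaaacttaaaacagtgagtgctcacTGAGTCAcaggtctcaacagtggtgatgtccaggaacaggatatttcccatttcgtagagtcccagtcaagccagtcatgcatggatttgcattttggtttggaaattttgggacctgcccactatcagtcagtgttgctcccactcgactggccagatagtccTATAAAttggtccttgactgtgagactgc
Sprr2f: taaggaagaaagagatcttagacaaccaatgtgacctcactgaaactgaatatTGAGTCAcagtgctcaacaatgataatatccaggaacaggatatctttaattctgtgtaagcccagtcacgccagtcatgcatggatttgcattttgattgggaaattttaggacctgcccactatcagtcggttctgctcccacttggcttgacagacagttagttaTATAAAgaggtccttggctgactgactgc
Sprr2h: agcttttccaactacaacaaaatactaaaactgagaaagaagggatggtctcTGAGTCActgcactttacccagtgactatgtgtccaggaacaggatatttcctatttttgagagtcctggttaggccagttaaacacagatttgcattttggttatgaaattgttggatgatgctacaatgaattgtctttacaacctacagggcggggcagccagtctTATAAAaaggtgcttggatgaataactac
The TATA letters began 29 bases before the start in all 5, and the AP-1 letters between 193 and 198 bases before it. Sprr2d and Sprr2e, the most alike pair of these 5, were identical in 225 of 252 aligned columns (89.3%), and Sprr2d and Sprr2h, which both rose by more than 3 on the log2 scale, in 65.0%. The windows of Sprr2a1, Sprr2a2 and Sprr2a3 held neither set of letters, which says only that the letters are not in those windows.

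Across all members with a RefSeq promoter (39 of 46, with 45 windows of 300 bases, 250 before the start and 50 after), TGANTCA stood in 17 windows (37.8%), against 7.81% of 32851 mouse promoters of the same length. TATAAA stood in 16 (35.6%, against 13.6%), the KLF core CACCC in 29 (64.4%, against 57.5%) and the xenobiotic response core GCGTG in 4 (8.89%, against 32.4%). No window held the grainyhead letters AACCNGGTT, which 0.271% of all promoters hold. Letters were searched on both strands. The AP-1 and TATA letters cannot overlap, but GCGTG and CACCC can share a base, and related genes share promoter sequence, so the windows are not independent. A match is not evidence of binding.

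Genes of the 3 secreted proteins of the upper epidermal layers rose together. Krtdap, a small peptide released by differentiating keratinocytes, was at 1.13, 0.73 and 0.544 CPM in vehicle libraries 1 to 3, 63.9, 124 and 113 CPM with UK5099 and 3.41, 2.89 and 3.91 CPM in Mpc1-KO. Its libraries too formed 3 separate bands, and the mean was 125-fold higher with UK5099 than with vehicle, a log2 fold change of 6.24 ± 0.25 (adjusted p = 2.77e-07). Dermokine (Dmkn), a secreted glycoprotein of suprabasal cells, was at 10.9, 13.3 and 13.1 CPM in vehicle, 104, 325 and 288 CPM with UK5099 and 16.6, 12.9 and 15.1 CPM in Mpc1-KO (log2 fold change 4.05 ± 0.34, adjusted p = 1.59e-05). Suprabasin (Sbsn), named for the suprabasal cells that make it, was at 8.16, 6.79 and 7.4 CPM, 31.4, 73.1 and 73.3 CPM and 12, 10.9 and 11.4 CPM in the same order (log2 fold change 2.81 ± 0.27, adjusted p = 3.38e-05). In both, UK5099 library 1 was the lowest treated library but above all vehicle and Mpc1-KO libraries. Of the 50-base words of Sbsn, 6.96% also occur in its antisense neighbour Tmem147os, and the strand setting of the counting is not stated. The Krtdap promoter (chr7:30787655-30787904, plus strand) is given because Krtdap passed in every comparison and every alternative run, with AP-1 letters 81 and TATA letters 30 bases before the start.
Krtdap: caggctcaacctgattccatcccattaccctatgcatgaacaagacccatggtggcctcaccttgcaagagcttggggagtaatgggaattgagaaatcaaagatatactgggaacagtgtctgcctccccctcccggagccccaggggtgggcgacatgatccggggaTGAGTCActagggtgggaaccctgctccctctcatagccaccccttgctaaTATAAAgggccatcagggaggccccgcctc

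Genes of the enzymes and anchors that assemble the envelope rose as well, 5 of 5. Of these, only Tgm3 was under 0.5 CPM in the vehicle mean and had to differ. Transglutaminase 1 (Tgm1), the membrane-bound enzyme that cross-links the scaffold, was at 15.2, 15.6 and 17.2 CPM in vehicle libraries 1 to 3, 79.8, 153 and 148 CPM with UK5099 and 32.7, 25.1 and 31.5 CPM in Mpc1-KO. The 3 groups did not overlap, and the change with UK5099 was 2.89 ± 0.21 on the log2 scale (adjusted p = 6.58e-06). Tgm5, a second epidermal transglutaminase, was at 0.634, 0.328 and 0.836 CPM in vehicle, 10.3, 14.1 and 9.76 CPM with UK5099 and 0.557, 0.489 and 0.506 CPM in Mpc1-KO, a log2 fold change of 3.44 ± 0.21 (adjusted p = 1.80e-06). Unlike most members, Tgm5 was as high in UK5099 library 1 as in library 3. Tgm3, which acts inside the cell on loricrin and the Sprr proteins, rose by 1.63 (adjusted p = 0.0069). Envoplakin (Evpl) and periplakin (Ppl) link the envelope to desmosomes and keratin filaments and were well expressed without the drug. Evpl was at 119.8, 122 and 128 CPM in vehicle, 363, 646 and 630.2 CPM with UK5099 and 178, 145 and 173 CPM in Mpc1-KO (log2 fold change 2.10 ± 0.19, adjusted p = 2.16e-05). Ppl was at 313, 325 and 330.4 CPM, 493, 701 and 649.8 CPM and 388, 364 and 389 CPM in the same order (log2 fold change 0.91 ± 0.11, adjusted p = 1.33e-04). Ppl had the smallest rise of the 41.

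Genes of desquamation, the shedding of cornified cells, held the 2 members that did not pass. Of 10 tested, 8 rose with UK5099. Only Spink5 and Cdsn rose from 0.5 CPM or more in the vehicle mean, and the others that rose had to differ. Spink5, the inhibitor that restrains the kallikrein proteases, was at 51.2, 60.8 and 65.1 CPM in vehicle libraries 1 to 3, 199, 339 and 363 CPM with UK5099 and 84.6, 61.4 and 75.5 CPM in Mpc1-KO (log2 fold change 2.29 ± 0.21, adjusted p = 2.41e-05). Corneodesmosin (Cdsn), the adhesive protein that these proteases cut, was at 1.09, 0.073 and 1.34 CPM in vehicle, 1.8, 18.4 and 15.9 CPM with UK5099 and 0.139, 0.0889 and 0.46 CPM in Mpc1-KO. UK5099 library 1 was just above the highest vehicle library, and the log2 fold change of 2.91 had a SE of 0.73 (adjusted p = 0.011). Klk7, the chymotrypsin-like kallikrein of the stratum corneum, was at 0.181, 0.073 and 0.167 CPM in vehicle, 0.561, 2.02 and 5.15 CPM with UK5099 and 0.0348, 0.0444 and 0 CPM in Mpc1-KO (log2 fold change 1.95 ± 0.46, adjusted p = 0.0083). Here UK5099 library 3, the shallowest, was the highest. Klk6, Klk10, Klk11 and Klk13, further kallikreins of the same chromosome 7, rose by 1.06, 1.31, 1.55 and 1.97 on the log2 scale from vehicle levels under 0.5 CPM. Klk6 and Klk11 had no vehicle read, and were at least 13.4-fold and 27.5-fold higher with UK5099 against a floor of 3 reads over the group. The call of Klk10 (adjusted p = 0.032) was lost without any single vehicle library or UK5099 library 2 or 3, and without UK5099 library 3 Klk6 fell under the minimum. Casp14, a protease of filaggrin breakdown, rose by 1.27 (adjusted p = 0.0064).

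Klk8 behaved otherwise. This trypsin-like kallikrein was at 8.88, 13.1 and 12.5 CPM in vehicle libraries 1 to 3, 3.73, 12.7 and 11.5 CPM with UK5099 and 5.47, 7.2 and 6.25 CPM in Mpc1-KO. UK5099 library 1 was the lowest of all 9 libraries and the other 2 lay within the vehicle range, giving a log2 fold change of -0.44 ± 0.37 (adjusted p = 0.38) that became 0.09 without library 1. Klk8 was the only tested kallikrein of the set with a vehicle mean above 0.5 CPM. Klk14, a trypsin-like kallikrein that acts with Klk5 and Klk7, was at 0, 0 and 0.0418 CPM in vehicle, 0.0802, 0.267 and 1.7 CPM with UK5099 and 0 in the 3 Mpc1-KO libraries. It was highest in UK5099 library 3 and did not pass (log2 fold change 0.95 ± 0.40, adjusted p = 0.089), but passed without UK5099 library 1. Klk5, the trypsin-like kallikrein at the head of the epidermal cascade, had 1 read in all 9 libraries together.

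Genes of surface and signalling proteins of differentiating cells rose in 3 of 3 tested, and lipid barrier genes in 2 of 2. Calml3 and the lipid genes Abca12 and Alox12b were under 0.5 CPM in the vehicle mean and had to differ. Ly6g6c, a GPI-anchored Ly6-family protein, was at 2.63, 1.31 and 2.8 CPM in vehicle libraries 1 to 3, 82.4, 294 and 234 CPM with UK5099 and 6.23, 2.67 and 5.29 CPM in Mpc1-KO (log2 fold change 6.07 ± 0.45, adjusted p = 6.89e-06). Lypd3, a related GPI-anchored adhesion protein, was at 98.7, 122 and 125 CPM in vehicle, 367, 691 and 606 CPM with UK5099 and 149, 119 and 133 CPM in Mpc1-KO (log2 fold change 2.22 ± 0.20, adjusted p = 2.39e-05). Both separated the treated from the untreated libraries completely. Calml3, a calmodulin-like calcium sensor of epithelia, was at 0.136, 0.219 and 0.376 CPM, 1.44, 6.62 and 3.76 CPM and 0.348, 0.356 and 0.184 CPM in the same order (log2 fold change 2.40, adjusted p = 8.47e-04). Abca12 loads lipid into the lamellar granules that epidermal cells secrete. It was at 0.181, 0.073 and 0.0836 CPM in vehicle, 11.4, 26.2 and 20.9 CPM with UK5099 and 0.244, 0.133 and 0.368 CPM in Mpc1-KO, a log2 fold change of 4.95 ± 0.27 (adjusted p = 1.17e-06). Alox12b, the lipoxygenase that starts the attachment of ceramide to the envelope, had no vehicle read, 1 read in Mpc1-KO and 0.441, 5.56 and 4.24 CPM with UK5099, at least 82-fold above a floor of 3 reads over the vehicle group (adjusted p = 0.0046). Aloxe3, which acts after Alox12b, was not tested.

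**Figure D2:**
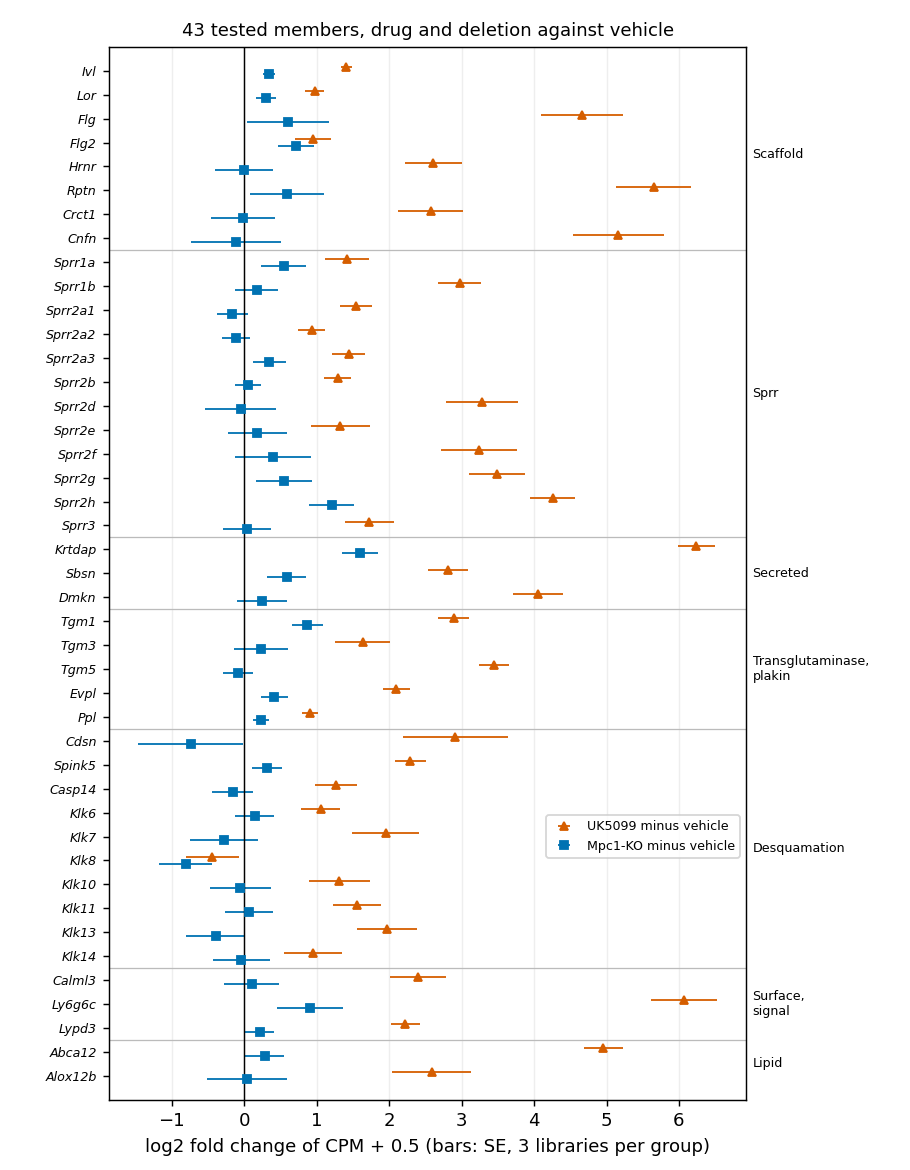
Log2 fold change of each of the 43 tested genes against vehicle, with its SE, for UK5099 (orange triangles) and Mpc1-KO (blue squares), 3 libraries per group. UK5099 values run from -0.44 (Klk8) to 6.24 (Krtdap) and Mpc1-KO values from -0.81 (Klk8) to 1.60 (Krtdap).

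The Mpc1-KO libraries address whether deletion of the carrier goes with the same changes as the inhibitor. Few members passed. Against vehicle, 4 of 43 passed as higher and none as lower (limma, as above; at an unadjusted p below 0.05 these were 5 and 0), beside 4.76% higher and 4.47% lower among all genes tested (669 and 628 genes, or 566 and 799 with median-of-ratios scaling). Krtdap rose by 1.60 ± 0.25 on the log2 scale (adjusted p = 0.0057), from a mean of 0.802 ± 0.301 to 3.4 ± 0.509 CPM. Sprr2h rose by 1.21 ± 0.31 (adjusted p = 0.039), Tgm1 by 0.87 ± 0.21 (adjusted p = 0.034) and Ivl by 0.34 ± 0.08 (adjusted p = 0.031). In each of these genes all 3 Mpc1-KO libraries lay above all 3 vehicle libraries, as the values above show. The same held for 13 of 43 members, against 22.3% of all genes tested. Log2 fold changes were above 0 in 29 members and below 0 in 14, with a median of 0.18, against -0.01 over all genes tested, or 0.22 with Klk6 and Klk13, each at 0 reads in 1 of the 2 groups, at their bounds. Of the 23 members at 0.5 CPM or more in the vehicle mean, 4 passed. In these, 19 were above 0 and 4 below, with a median of 0.31, against -0.02 over all genes at that level. Of the 20 other members none passed, and 10 were above 0 and 10 below, with a median of 0.02. Within the desquamation genes 3 of 10 were above 0, but Casp14 and every tested kallikrein except Klk8 were under 0.5 CPM in both group means. The Mpc1-KO libraries lay below all vehicle libraries in 2 of 43 members, Klk7 and Klk8, and neither passed. The share of all genes that did so was not counted, so no fall of these genes can be read from it. In Klk7 the separation rested on 1, 1 and 0 reads in Mpc1-KO against 4, 2 and 4 in vehicle. In Klk8 the log2 fold change was -0.81 ± 0.37 (adjusted p = 0.2).

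The count of 4 depended on which libraries set the spread, since 1 fit covered all 9. UK5099 libraries varied more among themselves than the others, with a median log2 SD per gene of 0.181, against 0.0876 in vehicle and 0.0608 in Mpc1-KO. With only the 6 vehicle and Mpc1-KO libraries in the fit, 12 members passed, the same 4 plus Evpl, Flg, Flg2, Ppl, Sbsn, Sprr1a and Sprr2g as higher and Klk8 as lower, while the shares of all genes were 15.0% higher and 15.9% lower. Without UK5099 library 1 it was 14 of 44 (13 higher, 1 lower, adding Ly6g6c and Rptn to those 12), against 12.3% and 13.4% of all genes. When vehicle library 2 or 3 or any Mpc1-KO library was left out, Krtdap was the only member that passed, and without vehicle library 1 there were 3, namely Krtdap, Ivl and Sprr2a3. Krtdap passed in all 18 alternatives, with adjusted p from 1.18e-04 to 0.039.

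The direct comparison of Mpc1-KO with UK5099, which tests the difference between the effects of deletion and drug, had 40 of 43 members lower in Mpc1-KO and none higher (0 also at an unadjusted p below 0.05), beside 22.0% of all genes tested lower. The median log2 difference was -2.02, against -0.05 over all genes, or -2.22 with Cnfn, Klk13 and Klk14, which had no Mpc1-KO read, at their bounds. Of the 23 members at 0.5 CPM or more in the vehicle mean, 22 were lower in Mpc1-KO. Of the 20 that reached that level only outside vehicle, 18 were lower. These 20 entered the test mostly through the UK5099 mean, so a lower level in Mpc1-KO was largely built in. The 4 genes that rose in both comparisons differed in size. Log2 fold changes with drug and deletion were 6.24 and 1.60 for Krtdap, 4.26 and 1.21 for Sprr2h, 2.89 and 0.87 for Tgm1 and 1.41 and 0.34 for Ivl, both against the same vehicle libraries. Their differences were -4.64 (adjusted p = 1.68e-06), -3.05 (5.55e-05), -2.02 (7.36e-05) and -1.07 (1.13e-05). Cnfn was at least 664-fold higher with UK5099 than in Mpc1-KO, against a floor of 3 reads over the group. For Flg2 the difference did not pass. It was at 0.604 ± 0.0162 CPM in Mpc1-KO and 0.849 ± 0.46 CPM with UK5099, a log2 difference of -0.23 ± 0.25 (adjusted p = 0.48). Klk8 and Klk14 did not pass either, and all 3 passed without UK5099 library 1. Sprr1a and Sprr2e, at adjusted p = 0.045 and 0.045, lost their calls when any library other than UK5099 library 1 was left out.

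The UK5099 libraries disagreed with each other on most of these genes. UK5099 library 1 was lower than the mean of libraries 2 and 3 on the log2 scale in 39 of the 43 members, and by more than 1 in 26, with a median of -1.24. Over all 14049 genes the median was 0.13, with 34.8% below 0 and 2.49% below -1. The widest gaps were in Cdsn (-2.93), Cnfn (-2.82), Flg (-2.58) and Alox12b (-2.51), and that of Cdsn was the lowest of all genes tested. By role, the medians were -1.81 for scaffold genes, -1.32 for Sprr genes, -1.21 for secreted proteins, -1.47 for desquamation genes, -1.50 for surface and signalling genes and -1.76 for the 2 lipid genes, but -0.45 for transglutaminases and plakins. Members with no such gap were Ivl (-0.05), Sprr2b (-0.01), Tgm5 (-0.19), Lor (-0.23), Tgm3 (0.36) and Sprr2a1, Sprr2a2 and Sprr2a3 (0.60, 0.20 and 0.32). Lists of related genes had lower values in library 1 as well, with medians of -0.87 for other envelope genes (15 of 17 below 0, 7 below -1), -0.71 for suprabasal keratins (5 of 6 below 0) and -0.47 for barrier lipid genes (15 of 22 below 0). The 5 basal markers ran from -0.11 to 0.47 in the same measure, and 5 urothelial markers from -1.64 to 1.24. Library 1 was still above the vehicle mean in 42 of 43 members, Klk8 being the exception. Leaving it out raised the median log2 fold change of the members from 2.22 to 2.56 and moved 10 called fold changes by more than 1.5 times, all upwards. Without it the log2 fold changes were 6.40 for Rptn, 6.11 for Cnfn, 5.52 for Flg and 3.24 for Crct1 among scaffold genes, 4.02 for Sprr2d, 3.99 for Sprr2f and 1.92 for Sprr2e, and 3.89 for Cdsn, 3.42 for Alox12b and 2.56 for Klk7. The count of members that passed became 43 of 44, with Klk14 and Aloxe3 added. Leaving out UK5099 library 2 moved Cnfn to 4.50 and leaving out library 3 moved Klk7 to 1.36, the only other moves of that size. The labels give no batch or date for these libraries.

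**Figure D3:**
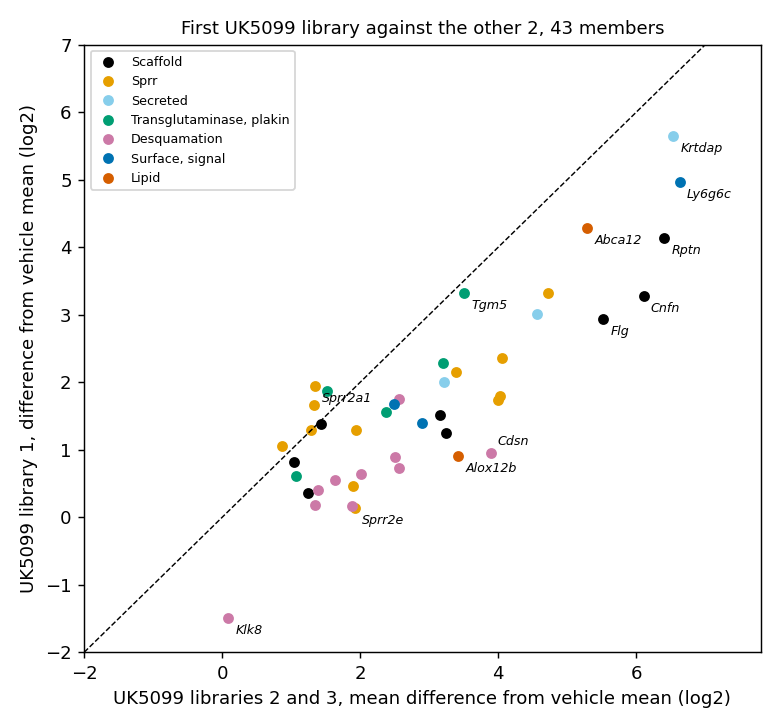
Difference from the vehicle mean on the log2(CPM + 0.5) scale for the 43 tested genes, in UK5099 library 1 (vertical) and as the mean of UK5099 libraries 2 and 3 (horizontal), coloured by role, with a dashed line of equality. In all, 39 of 43 genes lie below the line, and Klk8 is the only one below 0 on the vertical axis.

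Many of the genes are neighbours. On chromosome 3, 20 members stand in the epidermal differentiation complex, the run of envelope genes from Lor to Rptn, and 13 are on chromosome 7. RefSeq, on GRCm38.p6, places 50 genes in the run, namely all its protein-coding genes and Sprr2g. Of these, 26 were tested, 23 rose with UK5099 and 1 fell, beside 19.0% and 17.1% of all genes tested. The chosen members gave 19 of the 23, and of the 7 other genes tested 4 rose. Among those that rose, Sprr2a1, Sprr2a2, Sprr3, Crct1, Flg, Flg2, Hrnr, Rptn, Sprr2i and Lce3c were under 0.5 CPM in vehicle and had to differ. Outside the members, Prr9, Sprr2i, Lce3c and Crnn rose, with log2 fold changes of 1.38, 3.36, 0.92 and 2.74, and Lce1f fell by 0.51 from 0.520 CPM in vehicle to 0.212 CPM with UK5099 (adjusted p = 0.037). Crnn (cornulin), a relative of filaggrin made mainly in oral and oesophageal epithelium, was at 59.1, 52.5 and 54.9 CPM in vehicle libraries 1 to 3, 203, 498 and 520.4 CPM with UK5099 and 188, 135 and 162 CPM in Mpc1-KO. It also rose with deletion (1.52 ± 0.30, adjusted p = 0.014), as did Prr9 (0.62, adjusted p = 0.033). Late cornified envelope (Lce) genes fill the middle of the run. Apart from Lce1f and Lce3c, every Lce gene was under 0.5 CPM in each group mean, so that the rise took in both flanks of the run and was not detectable at this depth in most of its middle.

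**Figure D4:**
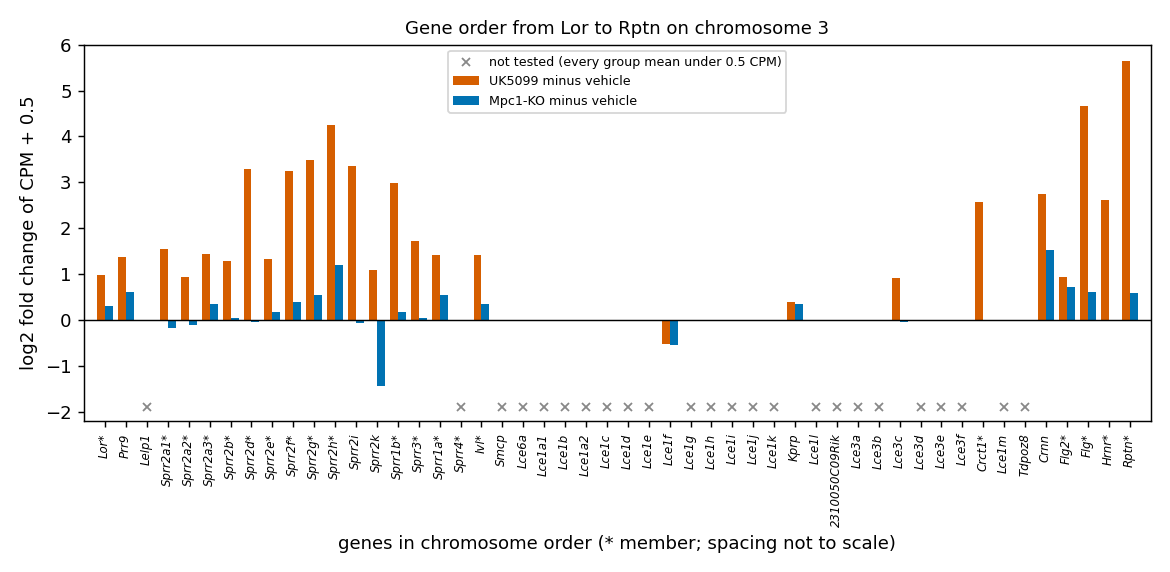
Log2 fold change against vehicle of the 50 genes from Lor to Rptn in RefSeq order along chromosome 3, for UK5099 (orange bars) and Mpc1-KO (blue bars), with crosses for genes not tested and asterisks for members. The orange bars stand on the left (Lor to Ivl) and right (Crct1 to Rptn) of the run, with mostly untested Lce genes between them.

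Beside the members, lists chosen with earlier results of these data known held other genes of cornification and of the same epithelial layers. Counts with UK5099 here and in the next paragraph stand beside 19.0% higher and 17.1% lower among all genes tested. Among genes at 0.5 CPM or more in the vehicle mean, 17.9% were higher. Some of them too reached 0.5 CPM only outside vehicle and had to differ, and these are counted apart. Of 17 tested genes of other envelope proteins (40 listed), 12 rose and 1 fell with UK5099, and the median log2 fold change was 1.09. Of the 14 at that level in vehicle, 10 rose and 1 fell. Desmoplakin (Dsp), which anchors keratin at desmosomes, went from 2283 ± 215 to 4308 ± 982 CPM (adjusted p = 0.0011), while Anxa1, an abundant annexin found in envelopes, was at 2805 ± 114 and 3049 ± 292 CPM and did not pass. All 6 tested suprabasal keratins of 8 rose (median 2.24). The mucosal pair Krt4 and Krt13 went from 221 ± 75.4 to 1514 ± 415 CPM and from 11.6 ± 3.01 to 483 ± 140.1 CPM, and the epidermal keratin Krt10 from 2.43 ± 0.622 to 360.3 ± 197 CPM. Of 9 other genes of the cornified desmosome, 8 rose and none fell, 0 also at an unadjusted p below 0.05 (median 1.60), and 6 of the 7 at that level in vehicle. Plakophilin 1 (Pkp1), a plaque protein and the most abundant of the 9, did not pass (log2 fold change 0.21, adjusted p = 0.11). Dsc2 and Jup, a desmosomal cadherin and its plaque partner, rose by 1.02 and 0.64 on the log2 scale. Of 22 tested barrier lipid genes, 15 rose and 6 fell (median 0.61), and 10 rose and 6 fell among the 17 at that level in vehicle. Of 13 tested proteases and inhibitors of the barrier 6 rose and 4 fell (median 0.07), and 5 rose and 4 fell among the 12 at that level in vehicle. St14 (matriptase), a membrane protease of epithelia that stands in both of these lists, fell from 519 ± 7.26 to 307 ± 37.0 CPM. Of 7 other kallikreins, Klk9 alone was tested and did not pass (log2 fold change 1.20, adjusted p = 0.051). With deletion, the same lists had 2 higher and 0 lower of 17, 1 and 0 of 6, 0 and 0 of 9, 2 and 2 of 22, and 1 and 1 of 13. Among all genes tested, 4.76% were higher and 4.47% lower with deletion. Of the zero counts with deletion, 3 other envelope genes, 1 suprabasal keratin and 1 desmosome gene were lower at an unadjusted p below 0.05, and no desmosome gene was higher.

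Markers of other cell types moved with the drug too, and their part in the rise was not tested. All 5 basal markers rose with UK5099, and their summed level went from a range of 4998 to 5891 CPM in vehicle to 14727 to 17826 CPM, with 5665 to 6166 CPM in Mpc1-KO, where Krt5 alone rose (log2 fold change 0.36, adjusted p = 0.02). Of 5 luminal markers 1 rose (Cd24a) and 3 fell (Krt8, Krt18 and Epcam), with sums of 8600 to 8902 CPM, 6769 to 7152 CPM and 8526 to 8695 CPM in the same order. Of 6 urothelial markers, 3 rose (Upk1a, Upk1b and Krt20) and 1 fell (Upk3a), and Upk3b was at 0 in all 9 libraries, with sums of 44.2 to 49.4 CPM, 155 to 318 CPM and 45.9 to 51.9 CPM. Of 10 mesenchymal markers, 6 were tested, 4 fell and Dcn rose, with sums of 139 to 207 CPM, 23.6 to 26.1 CPM and 50.2 to 66.5 CPM. Vimentin (Vim), the largest part in vehicle, went from 162 ± 30.4 to 8.47 ± 2.25 CPM, and to 42.8 ± 8.9 CPM in Mpc1-KO. Of 10 immune markers only Cd68 and Cd14 were tested and both fell, with sums of 99.2 to 101.6 CPM, 45.9 to 54.3 CPM and 99.7 to 101.7 CPM. Of 6 endothelial markers, Vwf rose from under 0.5 CPM in vehicle, with a sum no higher than 1.82 CPM in any library. No seminal vesicle marker and no hair keratin reached 0.5 CPM in a group mean.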

How the data were processed

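RNA from 9 organoid libraries (3 vehicle, 3 UK5099, 3 Mpc1-KO) was made into stranded mRNA libraries (KAPA) and sequenced in single 50-base reads. According to the study's methods and the submitters' processing notes, the authors aligned reads with STAR (2.7.9a), counted them per gene on GRCm39, and normalized them in Partek Flow to CPM. The deposited values are CPM (reads of a gene per 1000000 reads assigned to genes) plus 0.0001, unfiltered, and the 0.0001 was subtracted here. The authors tested differences with DESeq2, and no result of theirs was used.

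Depth was read from the CPM worth of 1 read, which made 99.90% to 99.94% of values below 1000 reads whole within 0.02. Intervals and floors cover counting error only. The table held 52249 entries. The 1 without a gene name took at most 0.000715% of a library, and 24 names turned to dates could not be matched.

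Genes with at least 0.5 CPM in the mean of any one group (14049) entered limma 3.58.1 (R 4.3.3) as log2(CPM + 0.5), in a trended eBayes fit of the 9 libraries without a block. The fit had 6 residual and 4.06 prior degrees of freedom. Testing was two-sided, p was Benjamini-Hochberg adjusted over all genes, and a gene passed below 0.05. The fit was tested on simulated data. Samples were grouped by their labels.

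The members and all lists were chosen with earlier results of these data known. Values of every library are given for the 4 members with the highest mean CPM in each role, for members that passed in Mpc1-KO or did not pass with UK5099, and other members by range and count. Up to 4 genes of highest mean CPM were named from other lists.

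Same-numbered vehicle and UK5099 libraries deviated together from their group means (correlations of 0.44, 0.14 and 0.31, all above 0.1). Whether the numbers pair libraries is not stated. The main fit took no pairing, and an alternative run had a replicate block. Crosswise, correlations of 0.26 (vehicle 2, UK5099 3) and 0.13 (vehicle 3, UK5099 2) were also above 0.1, so these values do not settle a pairing by number. Same-numbered Mpc1-KO libraries gave -0.04, -0.02 and 0.09 with vehicle and -0.12, -0.08 and 0.12 with UK5099.

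Shared 50-base words were counted in GENCODE M21 transcripts. Promoter sequences and gene order are from RefSeq (GRCm38.p6), and no other coordinates are given because the counts were made on GRCm39. Promoters were aligned with Biopython 1.88. Alternatives were other pseudocounts, filters and scaling, no trend, a replicate block, only the 6 libraries of a comparison, and each library left out. Protein composition was not analysed here.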

Additional observations from a re-analysis of the deposited data

How the results depend on the processing

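Counts of members that passed with UK5099 (41) lay between 38 and 43 under the alternatives run, including each library left out, apart from those with stricter filters on low values. When the mean over all libraries had to reach 1 CPM, 30 of 31 passed, and with at least 0.5 CPM in the vehicle mean, chosen after seeing the data, 22 of 23 passed. Under these filters every lost call was of a gene no longer tested. For Mpc1-KO with UK5099 (40) the counts lay between 35 and 44, with 30 and 22 under the same filters. For Mpc1-KO with vehicle (4) the count was 1 without a filter, 2 with median-of-ratios scaling, 1 without the mean-variance trend, 12 with only the 6 libraries of the comparison, and 1 to 14 with each library left out. Over all genes this comparison gave 1297, 761 without a filter, 4347 with only the 6 libraries, and 306 to 3606 with each library left out. The replicate block changed no count of members (41, 4 and 40) and no member's call, and gave 5263 genes with UK5099 and 1399 with deletion, against 5062 and 1297. Scaling moved the median of all genes by less than 0.1 (log2).

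Some log2 fold changes that had not passed changed sign or, in Klk11, Klk14 and Alox12b, went to 0 when 1 library was left out. For Mpc1-KO with vehicle they ran from -0.089 to 0.086 (Hrnr), -0.10 to 0.072 (Crct1), -0.062 to 0.23 (Sprr2b), -0.18 to 0.11 (Sprr2d), -0.28 to 0.069 (Tgm5), -0.12 to 0.024 (Klk10), 0 to 0.094 (Klk11), -0.058 to 0 (Klk14), -0.0038 to 0.23 (Calml3) and 0 to 0.063 (Alox12b). For Klk8 with UK5099 the range was -0.74 to 0.086, and for Flg2 in Mpc1-KO with UK5099 -0.52 to 0.00077. The cause was not tested. Count tests (edgeR, DESeq2) and TMM scaling were planned on whole reads and not run, since the deposited values are CPM. Genes with under 3 reads in a group are limited by depth.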
